A study of Mus musculus with 21 samples.

Results

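Fgf9 and Fgf18 encode secreted fibroblast growth factors, and both were followed through the presomitic mesoderm (PSM), the unsegmented mesoderm that lies beside the neural tube and is cut into somites. They are 2 of the 18193 genes that a probe set with a single gene symbol represented on the array. They were selected on their measured profiles over the tissue, which differed from those of Fgf3, Fgf4, Fgf8, Fgf15 and Fgf17, the Fgf ligands that were highest in part 1. Their own levels are therefore given as a description without a test, and tests were kept for other genes of the pathway.

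The tissue came from CD-1 mice, an outbred strain with no engineered allele named in the labels, staged as E8.5 in the sample description and dissected, per the protocol, at 9.0 dpc (days after mating), while the design text appears to give a wider range of stages. Embryos were held in pancreatin (2 mg/ml, 1 min), a mixture of digestive enzymes, and the dissected PSM was cut into 7 pieces, called parts 1 to 7, with 3 Affymetrix arrays for each and 21 in all. The 6 pieces of neural tube cut from the same embryos were not analysed here. Both sides of the PSM were taken from 1 embryo and a further set from another, so that certain arrays share an embryo, though the replicate numbers of those arrays are not stated. The errors and p-values below thus measure the spread between arrays, which may be partly technical, and not that between embryos. The labels give no order for the part numbers, and positions are stated by number alone.

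Fibroblast growth factors bind receptor tyrosine kinases together with heparan sulphate chains on the cell surface, and the receptors signal through the RAS and MAP kinase cascade to genes of the Etv, Spry and Dusp families. In the PSM this pathway is best known for ligands made near the tail, which keep cells immature until they move out of range. Fgf18 belongs to the subfamily of Fgf8 and Fgf17, and Fgf9 to that of Fgf16 and Fgf20. Proteins of both subfamilies bind chiefly the mesenchymal splice forms of the receptors.

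The promoters of both genes are shown because they are the sequences closest to the transcripts that were measured, and because they are unlike in composition. Each runs from 250 bases before to 50 bases from the start site on, as given by RefSeq for mouse assembly GRCm38.p6, 5′ to 3′ on the strand of the gene. Both genes matched an entry. The Fgf9 sequence lies at chr14:58072436-58072735 on the plus strand, and the Fgf18 sequence at chr11:33147351-33147650 on the minus strand. Capitals mark the single match to the E-box letters CANNTG, searched on both strands.
Fgf9: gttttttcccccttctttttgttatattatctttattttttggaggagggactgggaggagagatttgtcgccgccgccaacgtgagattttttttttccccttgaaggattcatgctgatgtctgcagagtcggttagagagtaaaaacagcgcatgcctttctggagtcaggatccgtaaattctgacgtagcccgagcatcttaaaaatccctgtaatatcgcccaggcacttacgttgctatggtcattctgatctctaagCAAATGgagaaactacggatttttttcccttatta
Fgf18: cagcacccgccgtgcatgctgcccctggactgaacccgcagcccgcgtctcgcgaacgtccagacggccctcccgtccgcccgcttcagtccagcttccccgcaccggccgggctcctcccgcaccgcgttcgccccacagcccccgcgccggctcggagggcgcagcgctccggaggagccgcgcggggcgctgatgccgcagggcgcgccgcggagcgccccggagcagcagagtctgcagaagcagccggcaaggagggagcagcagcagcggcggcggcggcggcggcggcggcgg

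The Fgf9 promoter had a GC content of 42.7%, and 15.6% of the 32851 mouse promoters of the same length were lower. It held 12 CpG dinucleotides, against a median of 7 over all promoters. The Fgf18 promoter had a GC content of 78.7%, above 98.4% of promoters, and its 47 CpG dinucleotides outnumbered those of 98.6% of them. The median GC content was 52.7%. The Fgf9 window is not at the outer end of the annotated gene (chromosome 14, 58070671 to 58112854), since 2015 bases of the gene lie before this start site. For Fgf18 (chromosome 11, 33116970 to 33147400) no base does. The E-box match of Fgf9 starts 15 bases after the start site, and 72.3% of all promoters hold such a match. Neither window held AGGTGT, bound by T-box factors (in 13.7% of promoters), CTTTGA, bound by TCF/LEF factors (16%), GTGGGAA, bound by RBPJ (6.38%), or CCGGAA, bound by ETS factors (14.9%), on either strand. These matches describe letters in a window and are not known binding sites.

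Levels are MAS5 signal, the linear intensity that the Affymetrix software assigns to a probe set, as deposited. Arrays had a mean signal of 151 to 154 and a median of 12.9 to 13.7, since MAS5 scales arrays to a common level. No array repeated the values of another. Precision is limited by the number of arrays. Differences were taken on the scale log2(signal + 16), which understates the change of genes with low signal. A gene was tested if it reached the median of all values, 13.3, in at least 3 arrays, which kept 12143 genes. A call is an adjusted p under 0.05 in limma, with Benjamini-Hochberg adjustment over all of these genes. In pieces of tissue, fewer cells of a type and less RNA per cell cannot be told apart.

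The order of the part numbers could be read against markers. Of 9 genes of the tail end and immature PSM, among them Tbx6, Msgn1, Wnt3a and Cdx2, all 9 fell with part number, and of 9 genes of the segmenting PSM and somites, among them Meox1, Tcf15, Uncx and Ripply2, 8 rose. Mesp2 did not pass (adjusted p = 0.247, limma slope). Over all genes tested 11.1% fell and 8.09% rose with part number. Both lists were chosen with earlier results of these data known, so their counts describe the order of the parts and do not test it. The summed signal of the first list went from 6044 in part 1 to 198 in part 7, and that of the second from 471 to 10409.

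Fgf9 was highest in part 3 and lower towards both ends. It is represented by probe set 1438718_at. Its signal in replicates 1, 2 and 3 was 248, 286 and 242 in part 1, 476, 403 and 369 in part 2, and 552, 655 and 522 in part 3. Each of these parts lay wholly above the one before it. In part 4 the arrays read 410, 570 and 449, which overlapped part 3, and in part 5 they read 83.5, 228 and 257, all under the lowest array of part 4. The signal was 48.3, 56.5 and 111 in part 6 and 38.2, 58.6 and 105 in part 7, with overlapping ranges. All 21 values lay above the median of the whole table.

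As means over 3 arrays, the Fgf9 signal was 259 ± 23.9 (SD, n = 3) in part 1, 576 ± 70.0 in part 3 and 67.2 ± 34.2 in part 7. The level of part 3 was 8.58-fold that of part 7, the lowest. Part 1 therefore stood at 44.9% of part 3, part 2 at 72.2%, part 4 at 82.6%, part 5 at 32.9%, part 6 at 12.5% and part 7 at 11.7%. In descending order the parts ran 3, 4, 2, 1, 5, 6 and 7. Among neighbours in that order only parts 2 and 1 had array ranges that did not overlap.

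From part to part, Fgf9 differed by 0.65 ± 0.22 (SD over the 3 replicate numbers) on the log2 scale between parts 1 and 2 and by 0.46 ± 0.24 between parts 2 and 3. The step from part 4 to part 5 was -1.38 ± 0.67, in the same direction in 3 of 3 replicate numbers, and the part 4 mean was 2.51-fold that of part 5. Without replicate 1 of part 5 this step was -0.92. The next step, to part 6, was -1.16 ± 0.56, with ranges that overlapped. Non-overlap of this kind was seen, in the same direction, in 7.15% of all genes tested between parts 1 and 2, in 2.89% between parts 2 and 3 and in 6.08% between parts 4 and 5. Part 7 minus part 1 was -1.80 ± 0.62, and the slope was -0.42 per part, with -0.54, -0.45 and -0.27 in replicates 1, 2 and 3. A straight line does not describe this profile, which peaks in the middle.

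A further probe set of Fgf9, 1420795_at, also had its highest mean in part 3, at lower signal. It read 67.8, 67.4 and 62.4 in part 1 and 93.8, 108 and 122 in part 2. Part 3 read 112, 120 and 110, and part 7 read 18.7, 33.8 and 50.4. This probe set did not separate parts 2 and 3, whose ranges overlapped, with a step of 0.07 ± 0.18. Replicate 3 was highest in part 2. Parts 1 and 7 were both wholly below part 3. The mean of part 3 was 3.32-fold that of part 7. The step from part 4 to part 5 was smaller here, -0.51 ± 0.46, with overlapping ranges and a lower value in 2 of 3 replicate numbers, and part 7 minus part 1 was -0.75 ± 0.52.

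**Figure D1:**
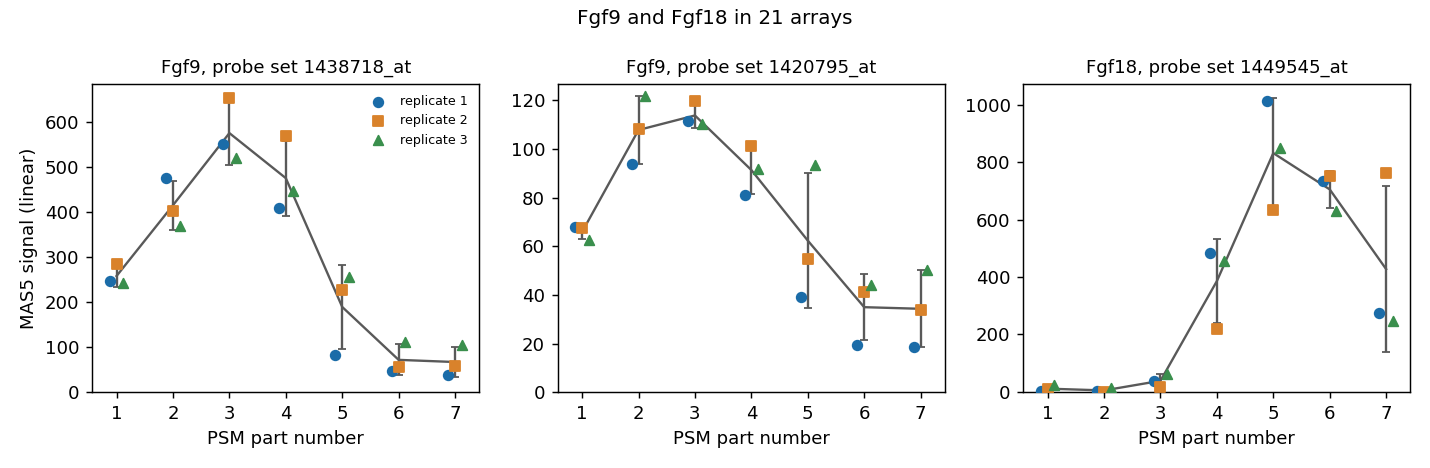
MAS5 signal (linear) of the 2 Fgf9 probe sets and the Fgf18 probe set against PSM part number. Symbols are the 21 arrays by replicate number, lines join the means of 3 arrays and bars are the SD. Both Fgf9 probe sets have their highest mean in part 3, though the arrays of parts 2 and 3 overlap for 1420795_at. Fgf18 peaks in part 5 after values of 60.4 or less in parts 1 to 3.

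Fgf18 was close to the bottom of the signal range in parts 1 and 2 and highest in part 5. Its only probe set on this array, 1449545_at, read 1.49, 9.07 and 22.2 in part 1 and 1.24, 0.887 and 11.8 in part 2. All but 1 of these 6 arrays lay under the median of all values, where MAS5 signal is least reliable. Part 3 read 39.2, 15.1 and 60.4, above every array of part 2 but overlapping part 1. The arrays then read 483, 218 and 456 in part 4 and 1013, 633 and 850 in part 5, with no overlap between parts 3, 4 and 5. Part 6 read 735, 751 and 630, within the range of part 5 but for its lowest array, and part 7 read 276, 761 and 245. Replicate 2 of part 7 was near the level of part 6, while the other arrays of that part were near the level of part 4. Fgf18 passed the filter on low values through parts 3 to 7, with 16 of 21 arrays at or above the median.

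The mean Fgf18 signal was 38.2 ± 22.7 (SD, n = 3) in part 3, 386 ± 146 in part 4 and 832 ± 191 in part 5. Part 4 was thus 10.1-fold part 3, and part 5 was 2.16-fold part 4. The steps on the log2 scale were 1.34 ± 0.41 from part 2 to part 3, 2.90 ± 0.28 from part 3 to part 4 and 1.13 ± 0.31 from part 4 to part 5, each in the same direction in 3 of 3 replicate numbers. Ranges that did not overlap in this direction were seen in 4.9% of all genes tested between parts 3 and 4 and in 4.17% between parts 4 and 5. Parts 6 and 7 stood at 84.8% and 51.4% of part 5, and part 4 at 46.4%. In descending order the parts ran 5, 6, 7, 4, 3, 1 and 2, and only parts 4 and 3 were neighbours without overlap. Part 7 minus part 1 was 3.93 ± 1.10 with the pseudocount of 16, but 5.48 with 1 and 2.57 with 64, and the slope was 0.93 per part, with 0.97, 1.08 and 0.75 in replicates 1, 2 and 3.

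With Fgf9 read from 1438718_at, the 2 genes exchanged places between parts 4 and 5. In part 4 each array held Fgf9 at 62.6% or more of its highest array and Fgf18 at 47.7% or less of its own. In part 5 Fgf9 was at 39.2% or less and Fgf18 at 62.5% or more in every array. By the other Fgf9 probe set, 1420795_at, replicate 3 did not fall between these parts. It read 91.6 in part 4 and 93.2 in part 5, where the highest array of that probe set read 122. With straight lines drawn between neighbouring parts, Fgf18 rose through 50% of the highest array of its replicate number at part positions 4.04, 4.39 and 3.92 in replicates 1, 2 and 3. Fgf9 fell through 50% at 4.41, 4.71 and 4.98 by 1438718_at, and at 4.60, 4.89 and 5.66 by 1420795_at. The rise of Fgf18 thus lay at a lower part position than the fall of Fgf9 in each of the 3 replicate numbers. These positions are interpolated, and the dissection resolves whole pieces only. Replicate 2 had the highest crossing for Fgf18 and replicate 3 the highest for Fgf9.

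**Figure D2:**
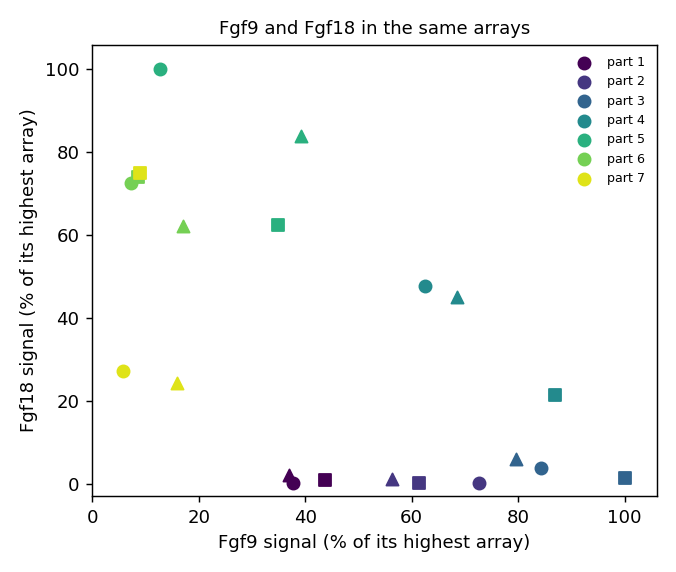
Fgf18 against Fgf9 signal (probe set 1438718_at) in the same 21 arrays, each as % of the highest array of that gene. Colours are the parts, and circles, squares and triangles are replicates 1, 2 and 3. Parts 1 to 3 lie along the bottom, part 4 holds both transcripts, and parts 5 to 7 lie to the left.

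Across the 21 arrays the log2 levels of Fgf9 and Fgf18 had a Pearson correlation of -0.592 and a Spearman correlation of -0.557. These points share the part and the array, so the values describe the profiles and carry no p. With the mean of each part taken away, the correlation was -0.394.

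Some position markers varied with the ligands between arrays of the same part, and others did not. In part 7 Fgf18 was highest in replicate 2, where Ripply2, a repressor expressed at the forming somite boundary, read 918 against 13.5 and 7.01 in replicates 1 and 3. Mesp2, a transcription factor of the same zone, read 54.1 there against 9.88 and 9.92. In part 4 Fgf18 was lowest in replicate 2, where Ripply2 read 22.6 against 385 and 287. Meox1, a homeobox gene of somites, read 1375 there against 2192 and 1715. Mesp2 was not lowest in that array, at 191 against 85.9 and 1439 in replicates 1 and 3. In part 5 Fgf18 was again lowest in replicate 2, at 633, while Ripply2 was lowest in replicate 3, at 304 against 2166 and 1255. With part means taken away, Fgf18 had correlations over the 21 arrays that ran from -0.322 (Meox2) to 0.721 (Ripply2) for the 9 markers of the segmenting PSM and somites. For the 9 of the tail end and immature PSM they ran from -0.6 (Msgn1) to 0.525 (Hes7), so that members of that list went both ways. For the summed signal of the lists the values were 0.617 and 0.175.

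For Fgf9 the array that stood apart was replicate 1 of part 5, with 83.5 against 228 and 257. Uncx, a homeobox gene of the caudal part of each somite, read 225 in that array against 37.1 and 59.5. Meox1 and Ripply2 were highest in that array too, while Mesp2, of the same list, was lowest, at 138 against 172 and 756. Within part 5 the 3′ to 5′ log2 ratio of the control probe sets, a measure of how far transcripts were shortened, was also highest there. It was 4.38 against 3.07 and 3.15 for actin and 3.81 against 3.30 and 2.94 for Gapdh. In parts 4 and 6 the array with the highest actin ratio likewise had the lowest Fgf9 of its part. In parts 1, 2, 3 and 7 the array with the highest actin ratio had the highest Fgf9. Over the 21 arrays, with part means taken away, the correlation of Fgf9 with the 9 markers of the segmenting PSM and somites ran from -0.799 (Uncx) to 0.0718 (Mesp2), and with the 9 of the immature PSM from -0.528 (Hes7) to 0.526 (Wnt3a). For the summed lists it was -0.515 and -0.0769. The part of position and of RNA shortening in the spread between arrays was not tested.

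The other secreted ligands set the comparison for which both genes were picked, and their values are likewise a description. Fgf3, Fgf4, Fgf8, Fgf15 and Fgf17 were all highest in part 1. In part 3, where Fgf9 peaked, Fgf3 stood at 38.6%, Fgf4 at 6.65%, Fgf8 at 34.3%, Fgf15 at 37.1% and Fgf17 at 6.32% of their part 1 mean. In part 5, where Fgf18 peaked, Fgf3 stood at 16.3% and Fgf15 at 9.45%, while the means of Fgf4, Fgf8 and Fgf17 were 0.775, 3.74 and 8.97, under the median of all values, where signal has no firm order. Fgf4, Fgf8 and Fgf17 were already close to that median in part 3, with means of 13.3, 18.3 and 18.2. Fgf8 and Fgf17 thus ran opposite to Fgf18, a member of their own subfamily, with part 7 minus part 1 on the log2 scale of -1.65 and -3.90 against 3.93. The sizes depend on the pseudocount, since Fgf8 and Fgf17 lay under the median in part 7, with means of 4.39 and 1.28, and Fgf18 in part 1, with 10.9. These differences are relative to each probe set, since levels of different probe sets cannot be compared.

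Of the 11 secreted ligands outside that group, which were Fgf1, Fgf2, Fgf5, Fgf6, Fgf7, Fgf10, Fgf16 and Fgf20 to Fgf23, only Fgf1 passed the filter, with a highest array of 19.1. Its slope was -0.02 ± 0.03 (SE, limma adjusted p = 0.662). Fgf16 and Fgf20, of the subfamily of Fgf9, did not reach the median of all values in any of the 21 arrays, with highest arrays of 10.1 and 3.22. Fgf7 and Fgf10, which bind the epithelial receptor forms, had highest arrays of 14.2 and 8.99. Of the 11, Fgf1 reached that median in 3 arrays and Fgf7 in 1, and the others in none.

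**Figure D3:**
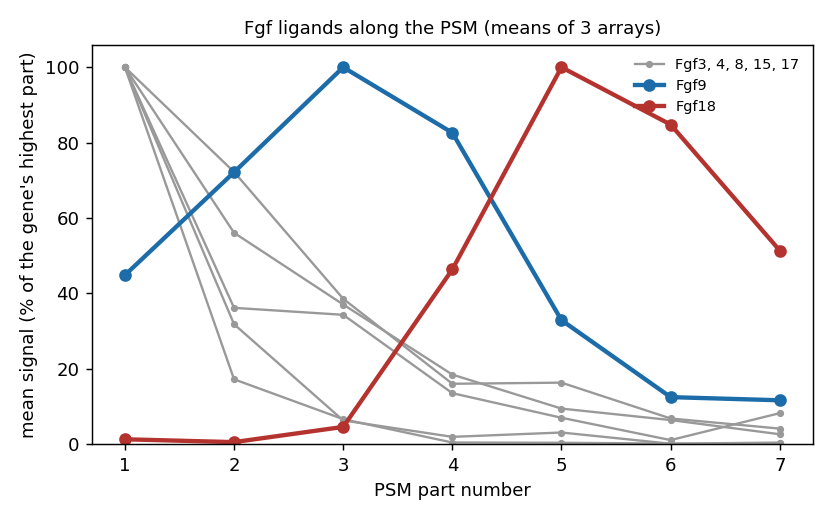
Mean signal of 7 Fgf ligands as % of the highest part of each gene against PSM part number (means of 3 arrays). Grey lines are Fgf3, Fgf4, Fgf8, Fgf15 and Fgf17, which start at 100 in part 1 and are at 38.6 or less by part 3, where Fgf9 (blue) is at 100. Fgf18 (red) reaches 100 in part 5.

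The receptors, through which both ligands act, were not used to pick them. All pathway lists were, however, chosen with earlier results of these data known. The list counts from here on therefore describe the lists and do not test them. Over all genes tested 19.2% had a called slope. Of 7 genes on the receptor list 5 were tested, 2 rose with part number and none fell. Fgfr2 rose by 0.51 ± 0.05 (SE) per part (limma adjusted p = 1.75e-07), and Fgfr1 by 0.23 ± 0.05 (limma adjusted p = 0.00168). Fgfr3 had a slope of -0.05 ± 0.03 and Fgfr4 of -0.04 ± 0.03, and neither passed (limma adjusted p = 0.287 and 0.363). Kl and Klb, co-receptors for the hormone-like ligands, did not pass the filter.

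The rise of Fgfr2 was a step. Its signal was 75.5, 66.0 and 77.8 in part 4 and 383, 233 and 307 in part 5. Every array of part 5 thus lay above every array of part 4, as in 4.17% of all genes tested. In parts 6 and 7 it read 417, 360 and 464, and 242, 418 and 294. In parts 1 to 3 its means were 43.3, 63.1 and 60.4. Fgfr2 thus changed level between the parts where Fgf9, by 1438718_at, had its largest fall. The largest step of Fgf18 lay 1 part before, between parts 3 and 4. The contrast of part 5 with part 4, chosen after the profiles of both ligands were seen, gave 1.84 ± 0.19 (SE, limma adjusted p = 4.97e-05), a 4.21-fold higher mean signal. Of all genes tested 0.321% were called in that contrast, and of the 66 tested pathway genes Fgfr2 was the only one. This fit leaves out the replicate number. With that number in the fit as a block, Il17rd and Flrt2 were called as well. Further probe sets of Fgfr2, with signal near the median of all values, differed by 0.41 and 0.81 in the same direction. The probe sets do not separate the splice forms that decide which ligands the receptor binds.

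Fgfr1, the main receptor of the PSM, read 282, 276 and 150 in part 4, 459, 224 and 236 in part 5 and 790, 393 and 438 in part 6. The arrays of parts 4 and 5 overlapped, and the difference of 0.33 ± 0.35 (SE) did not pass (limma adjusted p = 1). Part 7 minus part 1 was 1.28 ± 0.35 (SE, limma adjusted p = 0.0188), a call lost without replicate 1 or 3 of part 1, replicate 2 of part 7, or all arrays of replicate 1 or 2 (limma adjusted p = 0.055 to 0.112). Fgfrl1, a receptor without a kinase domain, differed between parts by the moderated F test (limma adjusted p = 0.0311) with no called slope. It was highest in part 4, at 679 ± 57.0 (SD, n = 3), against 445 ± 35.1 in part 1. That call was lost without replicate 1 or 3 of part 1, replicate 1 or 2 of part 3 or of part 4, or any 1 replicate number (limma adjusted p = 0.0546 to 0.43). The F test called 13.4% of all genes.

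Proteins that bind or restrain the receptors showed 1 called slope among 7 tested of 8, beside 19.2% of all genes tested. Il17rd, a membrane protein that restrains signalling by Fgf receptors, fell by 0.53 per part ± 0.06 (SE, limma adjusted p = 4.98e-07). Its signal was 424, 694 and 753 in part 4 and 138, 276 and 238 in part 5. These ranges did not overlap, as in 6.08% of all genes tested in that direction. The difference between these parts, -1.47 ± 0.40 (SE), did not pass over all genes (limma adjusted p = 0.224). It passed only with the replicate number as a block (limma adjusted p = 7.80e-04).

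Shisa proteins, which in Xenopus hold Fgf and Wnt receptors inside the cell, had 2 called members. Shisa3 differed between parts (F test, limma adjusted p = 3.02e-04), was highest in part 4 at 762 ± 156 (SD, n = 3), and stood at 116 ± 72.6 in part 1 and 162 ± 56.7 in part 7, and the call was lost without replicate 1 (limma adjusted p = 0.0754). Shisa2 was higher in part 7 than in part 1 by 1.08 ± 0.33 (SE, limma adjusted p = 0.0338), where 13.4% of all genes were called. It lost that call without the filter on low values, replicate 2 or 3 of part 1, replicate 1 or 3 of part 7, or all arrays of replicate 1 or 3 (limma adjusted p = 0.0509 to 0.225). Flrt2, a transmembrane partner of the receptors, had a difference between parts 5 and 4 of -1.22 ± 0.56 (SE) that did not pass (limma adjusted p = 0.921). It passed only with the replicate number as a block (limma adjusted p = 0.0173). Flrt1, Flrt3 and Fgfbp3 had no call in any of these tests. Fgfbp1 did not pass the filter.

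**Figure D4:**
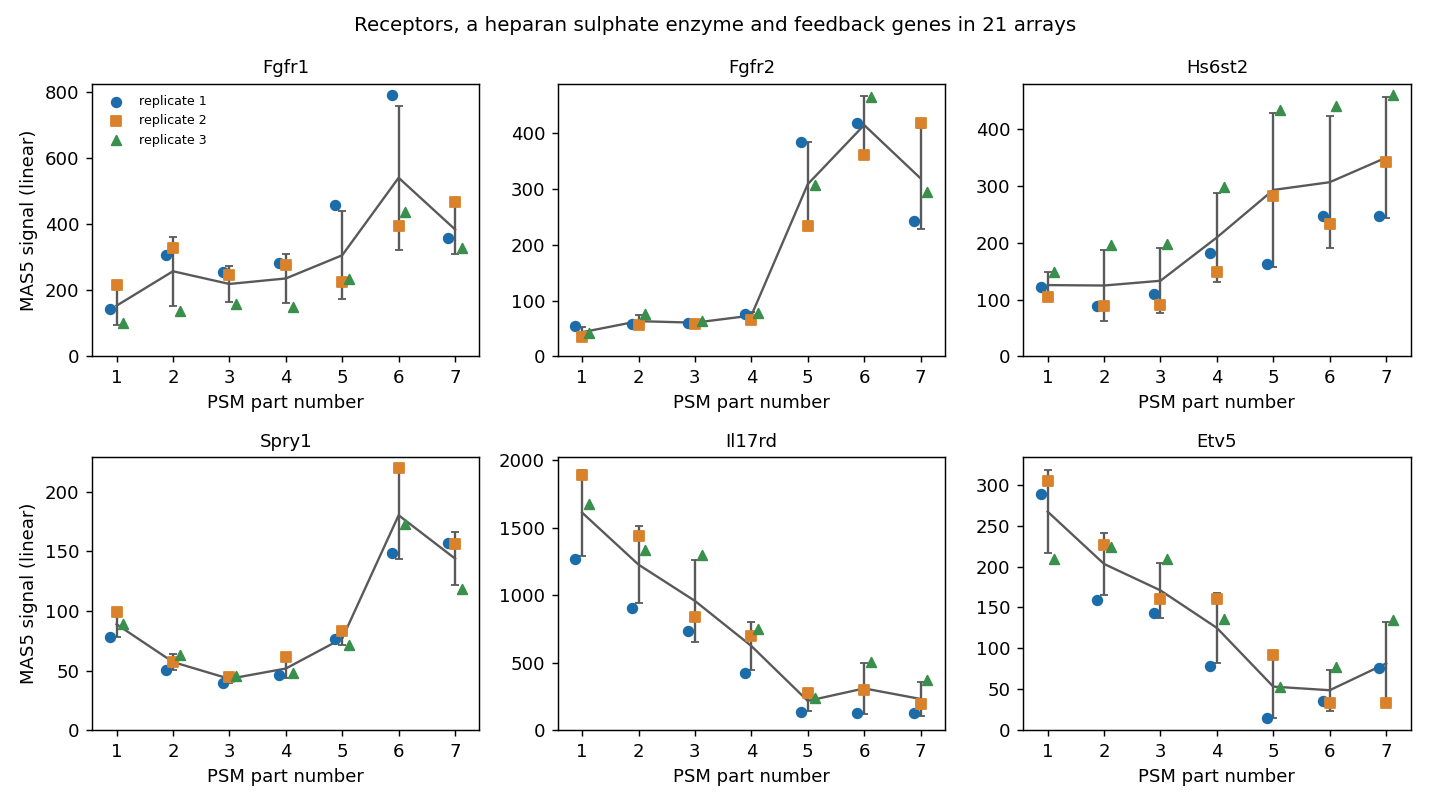
MAS5 signal (linear) of 6 pathway genes in the 21 arrays against PSM part number, with symbols for replicate numbers, lines for means of 3 arrays and bars for the SD. Fgfr2 steps up between parts 4 and 5, Fgfr1, Hs6st2 and Spry1 are highest in parts 6 or 7, and Il17rd and Etv5 are highest in part 1.

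Heparan sulphate, which both ligands need for receptor binding, had 25 tested genes, of which 3 rose and 6 fell, beside the 8.09% and 11.1% of all genes that did. Of the 11 tested core proteins 3 fell and 0 rose. Sdc3, a syndecan, fell by 0.14 ± 0.03 per part (SE, limma adjusted p = 2.90e-04), and the glypicans Gpc4 and Gpc3 fell by 0.17 ± 0.03 and 0.12 ± 0.02 (limma adjusted p = 2.23e-04 and 8.73e-04). Among 14 tested enzymes the sulphotransferases Hs6st2 and Hs6st1, which add sulphate at the 6-O position, rose by 0.27 ± 0.05 and 0.16 ± 0.03 (SE, limma adjusted p = 1.78e-04 and 0.00174). Hs3st3a1, which acts at the 3-O position, rose by 0.10 ± 0.03 (limma adjusted p = 0.0414). Sulf2, an extracellular enzyme that removes 6-O sulphate, fell by 0.10 per part ± 0.02 (limma adjusted p = 2.26e-04). Ext2 and Ext1, the polymerase subunits that build the chain, had slopes of -0.10 ± 0.02 and -0.09 ± 0.03 (limma adjusted p = 0.00181 and 0.0385). The calls of Ext1 and Hs3st3a1 were the least firm, lost in 11 of 34 and 12 of 33 alternatives (limma adjusted p = 0.0507 to 0.382 and 0.0523 to 0.335), among them replicate 2 left out, replicate 3 left out and no filter. Ext2 lost its call without replicate 3 (limma adjusted p = 0.0624) and, with a slope of -0.01, when all its probe sets were averaged (limma adjusted p = 0.736). The mean Hs6st2 signal was 126 ± 22.5 (SD, n = 3) in part 1 and 350 ± 107 in part 7.

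Among intracellular transducers 12 were tested and 2 were called, a share near the 19.2% of all genes. Nras rose by 0.06 ± 0.02 per part (SE, limma adjusted p = 0.0325), and Ptpn11, the phosphatase that links receptors to RAS, fell by 0.08 ± 0.02 (limma adjusted p = 4.91e-04). With all probe sets of a gene averaged, neither passed (limma adjusted p = 0.374 for Nras and 0.0693 for Ptpn11), and without replicate 2 neither did (0.106 and 0.056). Nras lost its call in 11 of 34 alternatives in all (limma adjusted p = 0.0506 to 0.374). The other 10 did not pass. The intracellular homologous factors, which are not secreted, had 2 tested members. Fgf13 differed between parts by the F test (limma adjusted p = 0.0275) and was highest in part 4, at 398 ± 67.7 (SD, n = 3), against 180 ± 79.8 in part 1, and Fgf14 did not pass (limma adjusted p = 0.0674). The call of Fgf13 was lost without replicate 2 or 3 of part 1, replicate 1 or 2 of part 4 or of part 5, all arrays of replicate 1 or 2, or with its probe sets averaged (limma adjusted p = 0.0504 to 0.416).

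Of 14 tested feedback and target genes of the pathway 6 fell with part number, 1 rose and 7 did not pass. Of all genes tested, 11.1% fell and 8.09% rose. Spry4 fell by 0.38 ± 0.07 per part (SE, limma adjusted p = 3.29e-04), Etv5 by 0.36 ± 0.06 (limma adjusted p = 1.10e-04) and Dusp4 by 0.32 ± 0.10 (limma adjusted p = 0.0235). Spred2, Etv4 and Spry2 had slopes of -0.22, -0.18 and -0.15. Spry2 lost its call in 10 of 34 alternatives (limma adjusted p = 0.0519 to 0.233), and Dusp4 without replicate 2 or 3 of part 1 or all arrays of replicate 2 or 3 (0.053 to 0.133). Spry1, an inhibitor of receptor tyrosine kinase signalling, was the member that rose, by 0.19 ± 0.05 (SE, limma adjusted p = 0.00963), which did not pass without replicate 1 or without replicate 2 (limma adjusted p = 0.0895 and 0.0554).

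Spry1 did not follow a line. Its signal was 77.9, 99.3 and 89.3 in part 1, 39.3, 44.4 and 45.5 in part 3, and 148, 220 and 173 in part 6. All arrays of part 3 lay under those of part 1, and all of part 6 above both. The share of all genes with such ranges was not counted for these parts. The F test over parts gave a limma adjusted p of 4.29e-07, where 13.4% of all genes tested were called. The lowest mean, in part 3, was where Fgf9 was highest, and the highest, in part 6, was where Fgf18 was at 84.8% of its peak. A link of Spry1 with either ligand was not tested. Etv5 was lowest in part 6, at 48.9 ± 24.8 (SD, n = 3), against 267 ± 51.1 in part 1.

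Counted together, 66 of the 95 listed pathway genes outside the members and the 5 ligands of part 1 were tested. By slope 7 rose, 14 fell and 45 did not pass, beside 8.09% and 11.1% of all genes tested that rose and fell. The F test, which also finds profiles that are not lines, called 26 and did not call 40, beside 13.4% of all genes tested. In part 7 against part 1, 8 were called higher and 13 lower, also beside 13.4%. As said above, these counts describe the lists. The median slope of the 66 was -0.02, and that of all genes tested was -0.00.

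The genes most like each ligand were named by the Pearson correlation of log2 levels over the 21 arrays, as a description of likeness in these arrays. For Fgf9 the 10 highest were Ppfibp1 (0.955), Mmp2 (0.928), Cachd1 (0.922), Mpzl2 (0.919), Dpysl3 (0.918), Jdp2 (0.906), Dusp22 (0.9), Rnf144b (0.898), Pcolce2 (0.896) and Tbx6 (0.894). Mmp2 is a metalloprotease of the extracellular matrix, Mpzl2 an adhesion protein, Jdp2 a repressor that pairs with AP-1 factors, and Tbx6 the T-box factor that makes PSM rather than neural tissue. Of these, Ppfibp1, Dpysl3, Jdp2, Dusp22 and Rnf144b had the same peak part as Fgf9, part 3.

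Ppfibp1, a liprin, had a mean signal of 769 in part 3 and 340 in part 7. Mpzl2 went from 238 in part 1 to 594 in part 3 and 38.0 in part 7, and Tbx6 from 534 to 661 and 29.6. Only some of the likeness held within parts. With part means taken away the correlation with Fgf9 was 0.688 for Ppfibp1 and 0.681 for Dusp22 but 0.00905 for Tbx6. The 5 genes least like Fgf9 were Perp (-0.936), Dner (-0.922), Vtn (-0.921), Pcp4 (-0.919) and Tmeff2 (-0.918), and Vtn, which encodes vitronectin, had its mean signal of 334 in part 7 against 3.48 in part 3.

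For Fgf18 the 10 highest were Efnb2 (0.973), Add3 (0.967), Peli2 (0.961), Met (0.958), Rflna (0.957), Arg1 (0.957), Meox1 (0.953), Sorl1 (0.944), Mid1ip1 (0.943) and Ntn1 (0.935). Efnb2 is an ephrin of the somite boundary, Met the receptor for hepatocyte growth factor, Arg1 an arginase and Ntn1 the guidance cue netrin 1. Of these 9 were highest in part 6, 1 part after Fgf18, and Mid1ip1 was highest in part 5. Efnb2 had a mean signal of 102 in part 3, 436 in part 4, 972 in part 5 and 721 in part 7. Met had 152, 446, 903 and 798 in the same parts.

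Within parts the likeness to Fgf18 varied between genes. With part means taken away the correlation was 0.848 for Efnb2 and 0.877 for Mid1ip1, though 0.0173 for Sorl1. The 5 least like Fgf18 were Zyx (-0.965), Egln3 (-0.953), Sp5 (-0.946), Tm9sf4 (-0.946) and Cd40 (-0.945). Sp5, a transcription factor induced by Wnt signalling, had a mean signal of 190 in part 1 and 23.0 in part 5. At a correlation of 0.9 or more there were 6 genes for Fgf9, with Dusp22 just under that value before rounding, and 28 for Fgf18 among the other 12142. Ranked by Spearman correlation instead, 3 of the 10 genes were shared for Fgf9 and 5 of 10 for Fgf18.

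**Figure D5:**
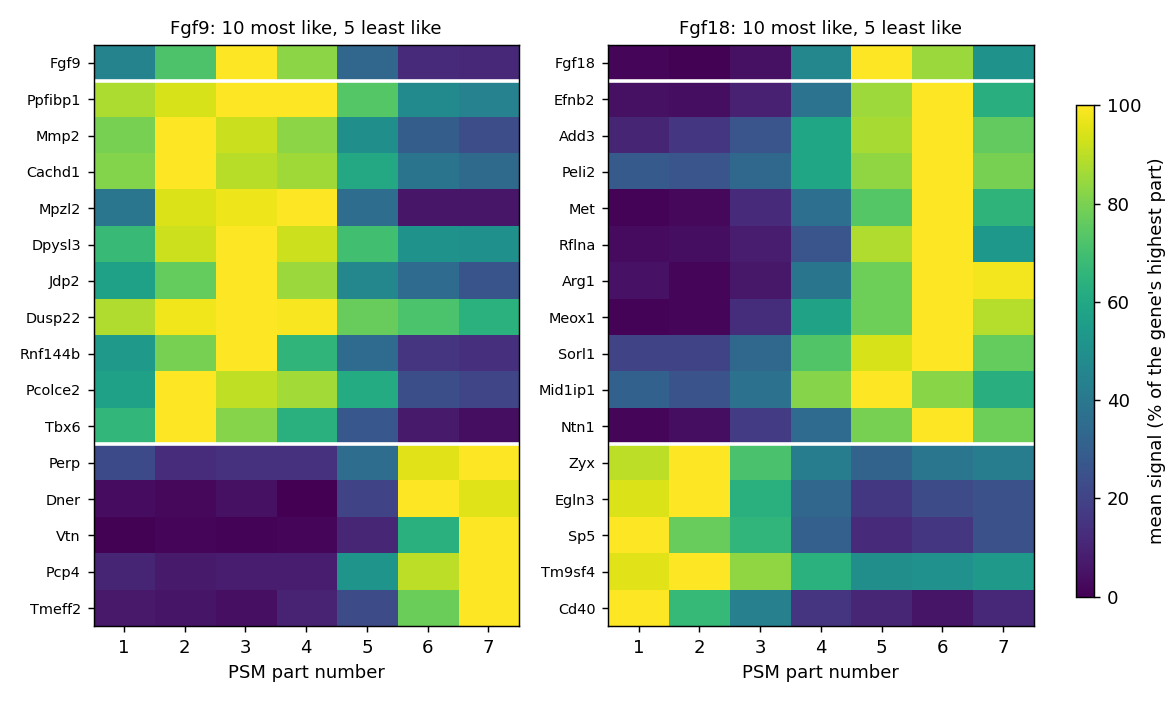
Mean signal of 3 arrays as % of the highest part of each gene, by PSM part number, for Fgf9 (left) and Fgf18 (right) with the 10 most like and 5 least like genes of each. Yellow marks 100%. Genes like Fgf9 are highest in parts 2 to 4, and those like Fgf18 in parts 5 and 6.

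Markers of other tissues varied over the same parts. The summed signal of 11 lateral and intermediate mesoderm markers on the array was 157, 320, 376, 337, 190, 168 and 189 in parts 1 to 7, as means of 3 arrays, and that of 12 endothelial markers was 385, 694, 783, 417, 302, 120 and 239. Both sums were thus highest in the part where Fgf9 was highest, and their arrays ran from 94.6 to 648 and from 36.4 to 1374. Of the 11 mesoderm markers 9 reached the median of all values in at least 1 array, among them Bmp4 in 21 arrays, Osr1 in 17 and Prrx1 in 17, and Hand1 and Gata4 in none. All 12 endothelial markers reached it in at least 1 array. Of 8 tested mesoderm markers the F test called Osr1 (limma adjusted p = 0.00803), Wt1 (0.0199) and Bmp4 (0.0498), beside 13.4% of all genes tested. These were highest in parts 3, 7 and 2. None of the 11 tested endothelial markers was called.

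Within part 2 the endothelial sum was 673, 36.4 and 1374 and the mesoderm sum 217, 94.6 and 648, while Fgf9 read 476, 403 and 369. With part means taken away, the correlation with Fgf9 over 21 arrays was 0.239 for the mesoderm sum, -0.12 for the endothelial sum and -0.649, the farthest from 0 of the tissue lists, for the surface ectoderm sum. For Fgf18 it ran over these tissue sums from -0.436 (neural tube) to 0.472 (blood). Gut endoderm markers fell from a sum of 562 in part 1 to 78.1 in part 6, blood markers lay between 8834 and 14390 in the part means, neural tube markers between 1071 and 1622, notochord markers between 44.7 and 72.1, surface ectoderm markers between 40.0 and 77.6, and neural crest markers between 186 and 291. Dermomyotome, myotome and sclerotome markers went from 199 in part 1 to 1432 in part 6. The part of these tissues in the profiles of Fgf9 and Fgf18 was not tested.

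The mean 3′ to 5′ ratio of the control probe sets was lowest in part 1. For actin its mean was 2.91 on the log2 scale there and between 3.53 and 3.91 in the other parts, and for Gapdh 2.90 and between 3.35 and 3.79. Single arrays ran from 2.35 to 4.39 for actin and from 2.21 to 4.11 for Gapdh. The part of this measure in the results was not tested.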

How the data were processed

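RNA was extracted from each piece with Trizol and labelled with biotin in 2 rounds of amplification, per the labels' protocols, which can distort levels and shorten transcripts. The deposited intensity values are linear signal per probe set that the authors computed with MAS5, as the submitters' processing notes say. The sources used here give neither its version nor its target level. MAS5 hides shifts shared by most genes and is noisy at low signal.

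The platform annotation gave 1 symbol to 34945 of 45101 probe sets, of which 34741 were in the RefSeq table. It gave none to 9160 and several to 932, which were dropped with 64 controls. Each gene was read from its probe set of highest mean, as log2(signal + 16). Models were fitted in limma 3.58.1 (R 4.3.3), with a trend of variance on mean and without covariates, as a straight line on part number and as 1 fit over 7 parts (part 7 against 1, part 5 against 4, moderated F test) with 14 residual degrees of freedom. They were run on simulated data with independent noise in each array. That simulation left out the shared deviation of arrays with the same replicate number. Errors are the SD over 3 arrays or replicate numbers, or the SE of the fit.

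The 2 ligands and all gene lists were chosen with earlier results of these data known. The named genes were both ligands, the ligand, receptor and modulator lists, of the other pathway lists the 4 called members of largest slope and those behind counts of 5 or fewer, position markers, and the 10 most and 5 least like genes. The contrast of part 5 with part 4 was added after the profiles were seen. As alternatives, the pseudocount was set to 1 or 64, the filter was dropped or raised to the 75th percentile, arrays were quantile normalized or centred on their medians, the variance trend was dropped, arrays were weighted, other probe sets or their mean stood for a gene, only parts 1 and 7 were fitted, the replicate number was a block, and each replicate number or array was left out.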

Additional observations from a re-analysis of the deposited data

How the results depend on the processing

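Both ligands kept their directions in all alternatives run. With a pseudocount of 1 or 64 in place of 16, Fgf18 part 7 minus part 1 was 5.48 or 2.57, its slope 1.29 or 0.64, and part 4 minus part 3 (added after seeing the data) 3.42 or 2.10, since parts 1 to 3 lie near the bottom of the scale. The other Fgf9 probe set gave -0.51 for part 5 minus part 4 (also added), -0.75 for part 7 minus part 1 and a slope of -0.20; the cause was not tested.

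Leaving out 1 array or replicate number gave 3.42 to 4.51, 0.86 to 1.03 and 2.55 to 3.26 for the 3 Fgf18 values, and for Fgf9 -1.68 to -0.92 (part 5 minus part 4), -2.15 to -1.53 and -0.50 to -0.36. The counts over all genes ranged from 611 to 1725 (F test, 1633 with all arrays), 704 to 1712 (part 7 against part 1, 1628 with all), 1374 to 2320 (slope, 2328 with all) and 5 to 57 (part 5 against part 4, 39 with all). Without replicate 1 they were 611, 704, 1374 and 5, and without replicate 2 they were 645, 750, 1465 and 12, with fewer arrays in every part. The count for part 5 against part 4 was also 16 without replicate 3, 25 and 13 without replicates 1 and 2 of part 4, and 12 and 23 without replicates 1 and 3 of part 5. The called pathway slopes numbered 14 (without replicate 2) to 21, and Fgfr2 was the 1 pathway gene called in part 5 against part 4 in each of these. Array weights gave 68 calls for part 5 against part 4, and a fit on parts 1 and 7 alone 1076 for part 7 against part 1, with fewer arrays.

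Arrays with the same replicate number deviated together with a correlation over 0.1 in 55 of 63 pairs of arrays (lowest 0.0375), and 18 of 21 arrays correlated best with their own number, a hint from the data and not the design. With the replicate number as a block, the F test called 3030 genes, part 7 against part 1 2860, and part 5 against part 4 105 genes, 3 of them pathway genes (Fgfr2, Il17rd with a limma adjusted p of 7.80e-04 and Flrt2 with 0.0173), and every call made without the block was kept. Among 951 alternative values for named pathway calls, 866 stayed past the threshold, 85 lost the call and none reversed. Hs3st3a1 lost it in 12, Ext1 and Nras in 11 each, Spry2 in 10, Fgf13 and Fgfrl1 in 9 each, and Shisa2 in 7. Weak signal limits Fgf18 in parts 1 and 2, where its differences have no firm order.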
